A study of Homo sapiens with 22 samples.

Results

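The genes described here are 10 feedback inhibitors of MAP kinase signalling, namely DUSP1, DUSP2, DUSP4, DUSP5, DUSP6, DUSP10, SPRY2, SPRY4, SPRED1 and SPRED2. All regions of the 4 deposited region tables that overlapped a member's RefSeq gene span (GRCh38), extended by 50 kb on each side, were taken. This gave 488 of 409446 regions: 164 of 95436 for H3K27ac, 161 of 138731 for Jun, 55 of 66168 for CTCF and 108 of 109111 for Rad21. The number per gene ran from 15 (SPRY2) to 93 (SPRED2) over the 4 tables. Regions were taken by position only, while the genes themselves were chosen with earlier results of these data known. A region within 50 kb of a gene need not act on that gene, and the windows of DUSP2, DUSP6 and SPRED2 also hold other coding genes (ADRA2B, ASTL and STARD7; POC1B and the POC1B-DUSP6 read-through gene; ACTR2).

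As background, MAP kinases carry signals from the cell surface to the nucleus through a chain of phosphorylations. Dual-specificity phosphatases of the DUSP family remove the activating phosphates from ERK, JNK or p38, while Sprouty (SPRY) and SPRED proteins act further up and limit the activation of Ras and Raf. Many of these genes are themselves switched on by ERK signalling and so form negative feedback loops. PMA, a phorbol ester, activates protein kinase C and through it the Ras to ERK pathway, and Jun is a subunit of AP-1, a transcription factor that is a classical target of phorbol esters.

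The samples were 22 libraries of wild-type K562, a human leukemia line with erythroid features that PMA drives toward a megakaryocyte-like state. Cells had received 25 nM PMA for 0 h, 6 h or 72 h, and the 0 h libraries are the untreated starting point. H3K27ac (acetylated lysine of histone H3, a mark of active promoters and enhancers), Jun and CTCF (an insulator protein) were profiled at 0, 6 and 72 h, and the cohesin subunit Rad21 at 0 and 72 h, with 2 libraries in each of the 11 groups. The assay, CNR in the titles, was read as CUT&RUN, where a nuclease tethered through an antibody cuts out DNA beside its target. No group without an antibody and no vehicle control at 6 or 72 h was analysed here.

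Total counts in regions were 12634261 to 27266241 per library for H3K27ac, 4766421 to 18883962 for Jun, 2553677 to 6068421 for CTCF and 4398797 to 7285286 for Rad21. The mitochondrial share of those counts was 8.58% to 27.7% in the Jun libraries, 9.55% to 30.5% for CTCF, 24.8% to 34.1% for Rad21 and 0.286% to 1.47% for H3K27ac. Replicates differed beyond sampling noise, as the chi-square between replicates, divided by its degrees of freedom, was 2.15 to 6.74. At their start regions, or the strongest region in the span where no region lay at a start, 6 of 8 erythroid markers had H3K27ac at 0 h, with means of 24.9 to 214 CPM (read counts scaled to library size with TMM factors), and all 6 were lower at 72 h. Of 7 megakaryocyte markers 5 had a tested region, of which 4 were higher and 1 was lower at 72 h. The regions differ in kind: the 4 higher were the strongest of the span, and the 1 lower overlapped a start. Of the 6 erythroid regions 3 overlapped a start and 1 lay within 1 kb. Over all H3K27ac regions at RefSeq starts 13.6% were higher and 72.1% lower, and away from starts 46.5% and 34.6%. Of 10 markers of other cell types 6 had no H3K27ac region in the table, and the other 4 had means of 1.4 to 15.1 CPM at 0 h, with 2 higher and 1 lower at 72 h. In such bulk libraries, a change in part of the cells and a smaller change in every cell cannot be told apart.

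H3K27ac around the feedback genes was higher after PMA at most regions. At 72 h against 0 h, 119 of the 164 member regions were higher and 16 lower by edgeR's quasi-likelihood test (adjusted p under 0.05 over all tested regions). That is 72.6% higher, where 43.4% of all 94865 tested regions were higher, and 9.76% lower, where 38.1% of all were lower. Regions called in either direction made up 82.3% of the members and 81.5% of all regions. The median log2 fold change was 1.77 for the members and 0.18 for all regions. At 6 h against 0 h, 102 were higher and 16 lower, or 72.0% called against 58.6% of all regions, with 62.2% higher against 32.3% of all and 9.76% lower against 26.3% of all. The median at 6 h was 1.17, against 0.20 for all regions. With total-count scaling 119 were higher and 5 lower at 6 h, so that 96.0% of calls were higher, against 71.8% of all calls. From 6 h to 72 h, 91 member regions rose further and 14 fell, which is 64.0% called against 63.8% of all, with 55.5% higher against 33.1% of all and 8.54% lower against 30.8% of all.

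Most of the rise had begun by 6 h. Of the 164 regions, 95 were higher at both 6 h and 72 h than at 0 h, and 62 of these were higher again at 72 h than at 6 h. A further 24 were higher at 72 h but not called at 6 h, and 7 were higher at 6 h and not called higher at 72 h. Over all 94865 tested regions the same classes held 27.6%, 16.6%, 15.8% and 4.70%, where the members had 57.9%, 37.8%, 14.6% and 4.27%. Scaling by total counts in place of TMM factors, which correct for composition, moved the 72 h median from 0.18 to 0.42 for all regions and from 1.77 to 2.00 for the members. The times share the same 0 h libraries.

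The genes differed from one another. At 72 h the count of regions higher and lower was 30 and 1 of 31 for DUSP5, 16 and 0 of 17 for SPRY4, 19 and 0 of 23 for DUSP6, 6 and 1 of 9 for DUSP2 and 6 and 0 of 8 for DUSP4. For SPRED2 it was 23 and 2 of 33, for SPRY2 5 and 1 of 7, for DUSP1 6 and 2 of 11 and for DUSP10 7 and 4 of 19. SPRED1 went the other way, with 1 higher and 5 lower of 6. The median log2 fold change at 72 h ran in the order DUSP5 4.61, DUSP2 3.20, SPRY4 3.02, DUSP4 2.24, DUSP6 1.59, SPRED2 1.08, DUSP1 0.78, SPRY2 0.70, DUSP10 0.41 and SPRED1 −1.63.

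**Figure D1:**
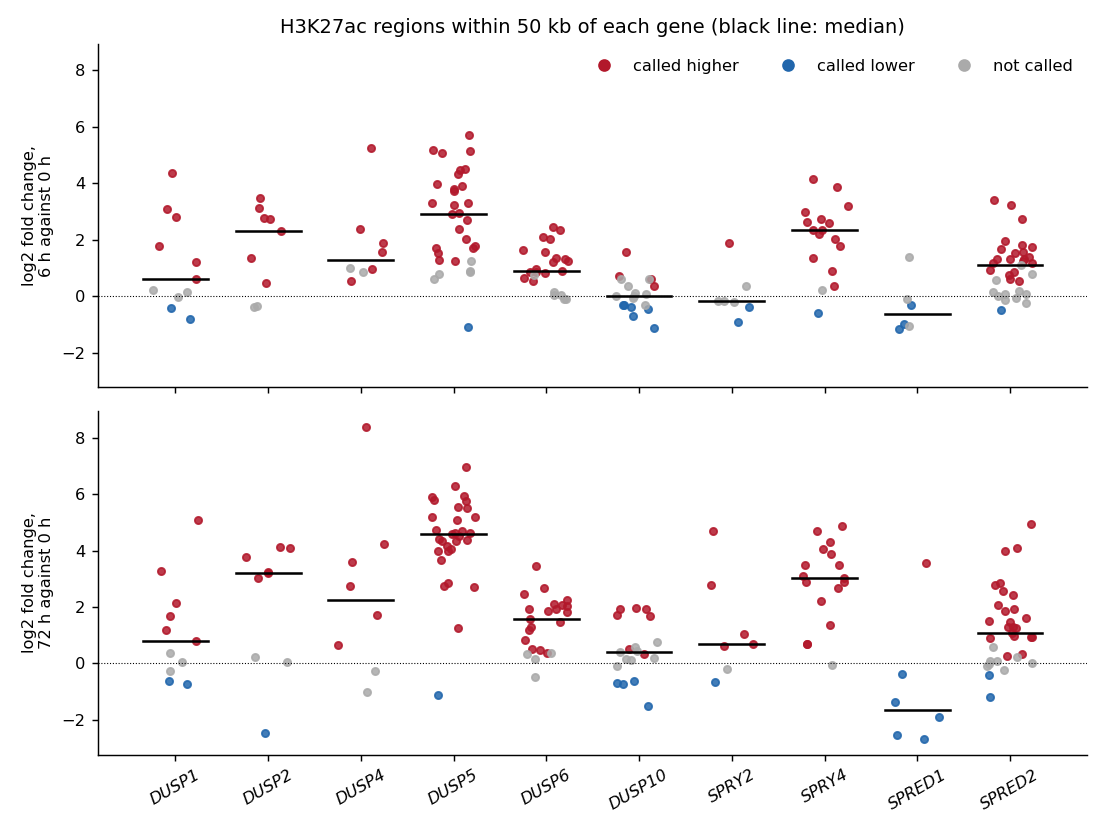
H3K27ac log2 fold change at 6 h and at 72 h against 0 h for the tested regions of each of the 10 genes, with 1 point a region, colour for the call and a black line at each gene's median. Nearly all DUSP5 and SPRY4 regions lie above 0 at both times, while 5 of the 6 SPRED1 regions were lower at 72 h.

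Summed over all H3K27ac regions of a locus, DUSP5 held 48.7 and 52.4 CPM at 0 h, 155 and 152 CPM at 6 h and 310 and 326 CPM at 72 h. The 72 h to 0 h ratio of 6.28 was the highest of the 10 loci, and no libraries of different times overlapped. DUSP4 had 8.63 and 8.64 CPM at 0 h, 20.4 and 17.3 CPM at 6 h and 43.0 and 44.4 CPM at 72 h, a ratio of 5.06 from the lowest starting level. DUSP2 and SPRY4 followed with ratios of 3.73 and 3.62, DUSP6 with 2.44 and SPRED2 with 1.46. DUSP1, DUSP10 and SPRY2 had ratios of 1.11, 1.05 and 1.19, or 1.30, 1.24 and 1.4 with total-count scaling, and their 72 h libraries lay above those of 0 h. DUSP10 and SPRY2 were lower at 6 h, at ratios of 0.78 and 0.743 to 0 h, and with total-count scaling these ratios were 0.983 and 0.937. SPRED1 held 162 and 162 CPM at 0 h and 118 and 128 CPM at 72 h, a ratio of 0.759, or 0.891 with total-count scaling. Locus totals were given no test, because with 2 libraries against 2 an exact permutation test cannot go below p = 0.33.

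**Figure D2:**
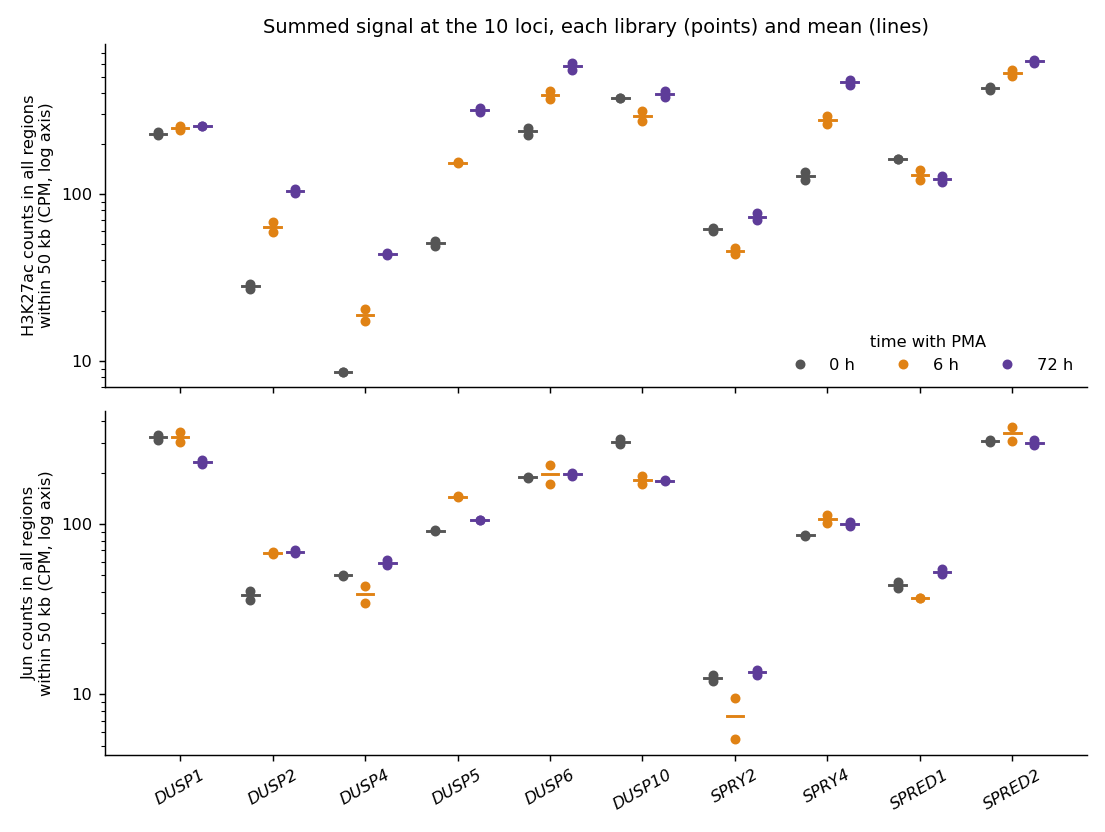
Summed CPM (log axis) over all H3K27ac regions (top) and all Jun regions (bottom) of each locus, with 1 point a library and a line at the mean of each time. H3K27ac at DUSP5 climbs from 48.7 and 52.4 CPM at 0 h to 310 and 326 CPM at 72 h, while DUSP1 stays between 225 and 256 CPM.

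Jun was lower at the start sites that had a Jun region and higher at many regions away from them. Among 159 tested Jun regions, 62 were higher and 36 lower at 72 h, which is 61.6% called against 53.7% of all 132947 tested regions, with 39.0% higher against 28% of all and 22.6% lower against 25.7% of all. At 6 h 39 were higher and 24 lower, or 39.6% called against 25.3% of all, with 24.5% higher against 13.1% and 15.1% lower against 12.2%. From 6 h to 72 h 21 were higher and 19 lower, or 25.2% called against 26.2% of all, where 12.7% of all were higher and 13.5% lower. This balance depended on the scaling, as total-count scaling gave 39 higher and 4 lower, and leaving out either 72 h library left 9 calls. With total-count scaling 90.7% of the member calls from 6 h to 72 h were higher, against 78.9% of all calls. In the gene spans alone the balance against 0 h turned, with 9 Jun regions higher and 15 lower of 38 at 72 h and 7 higher and 10 lower at 6 h. The mitochondrial share of counts differed between the Jun libraries, as given above, and its part in these calls was not tested beyond the other scalings. With total-count scaling the median of all Jun regions at 72 h moved from 0.17 to 0.73. The share of member calls that were higher moved from 63.3% to 85.3%, and that of all calls from 52.1% to 74.4%. Among Jun regions with a mean count of at least 50, 37 of 88 member regions were higher and 31 lower at 72 h. Of these calls 54.4% were higher, against 53.4% of all such calls.

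All 4 Jun regions that overlapped a RefSeq start of a member (DUSP1, DUSP10 and both starts of SPRED2) were lower at 72 h, with a median log2 fold change of −2.01. Over all Jun regions at RefSeq starts 71.5% were lower and 6.46% higher, and elsewhere 23% were lower and 29.2% higher. With total-count scaling the 4 were still lower, with a median of −1.45, while 43.2% of all Jun regions at starts were lower and 11.1% higher. Of the 153 tested Jun member regions that overlapped no start, 61 were higher and 31 lower.

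At the start of DUSP10 Jun was strongest of all these start sites, with 92.0 and 94.3 CPM at 0 h in the region chr1:221741887-221742610. It had 30.2 and 29.2 CPM at 6 h and 21.4 and 21.5 CPM at 72 h. The log2 fold change was −1.65 ± 0.190 (SE) at 6 h and −2.12 ± 0.183 at 72 h (n = 2 libraries each; edgeR adjusted p = 2.6e-06 and 2.0e-08). At the start of DUSP1 (chr5:172771098-172771642) Jun had 26.8 and 31.8 CPM at 0 h, 12.7 and 14.6 CPM at 6 h and 8.18 and 6.54 CPM at 72 h. The fall was −1.10 ± 0.215 at 6 h and −2.00 ± 0.199 at 72 h on the log2 scale, and no libraries of different times overlapped at either start. At the outer start of SPRED2 (chr2:65432316-65432793) Jun had 23.0 and 23.9 CPM, then 10.2 and 9.67 CPM, then 6.42 and 5.14 CPM, a change of −2.02 ± 0.202 at 72 h. At the inner start of SPRED2 (chr2:65366457-65367248) the values were 35.9 and 34.5 CPM at 0 h, 26.1 and 37.8 CPM at 6 h and 16.4 and 17.2 CPM at 72 h. The libraries of 0 h and 6 h overlapped there, and the change at 72 h was −1.07 ± 0.195, or −0.50 with total-count scaling.

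The RefSeq promoter windows of these 4 starts (GRCh38.p14, 250 bases before to 50 from the start, all on the minus strand) are shown because Jun reads fell there. Capitals mark motif matches on either strand.
DUSP1, chr5:172771146-172771445, capitals mark TGACGTCA (the CRE), CACGTG (an E-box) and TATAAA: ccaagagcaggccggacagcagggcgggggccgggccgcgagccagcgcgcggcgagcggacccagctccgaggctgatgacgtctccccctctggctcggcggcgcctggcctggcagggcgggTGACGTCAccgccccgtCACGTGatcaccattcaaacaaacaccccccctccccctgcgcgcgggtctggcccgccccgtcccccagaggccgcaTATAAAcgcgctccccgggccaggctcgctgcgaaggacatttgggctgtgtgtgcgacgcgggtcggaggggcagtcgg
DUSP10, chr1:221742040-221742339, capitals mark CCAAT: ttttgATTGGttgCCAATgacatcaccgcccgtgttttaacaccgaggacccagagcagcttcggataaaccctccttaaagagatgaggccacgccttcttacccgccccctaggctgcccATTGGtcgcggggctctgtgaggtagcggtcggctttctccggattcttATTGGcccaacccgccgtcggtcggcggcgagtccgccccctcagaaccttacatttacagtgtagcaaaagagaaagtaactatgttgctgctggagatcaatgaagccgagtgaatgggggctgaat
SPRED2 inner start, chr2:65366729-65367028, capitals mark TGANTCA (AP-1): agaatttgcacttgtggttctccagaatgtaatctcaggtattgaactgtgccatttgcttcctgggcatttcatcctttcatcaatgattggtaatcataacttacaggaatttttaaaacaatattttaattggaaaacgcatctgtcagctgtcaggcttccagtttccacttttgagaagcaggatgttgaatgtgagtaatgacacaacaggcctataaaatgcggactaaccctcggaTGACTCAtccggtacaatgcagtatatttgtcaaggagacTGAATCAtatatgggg
SPRED2 outer start, chr2:65432550-65432849, capitals mark TGACG (the core of the CRE): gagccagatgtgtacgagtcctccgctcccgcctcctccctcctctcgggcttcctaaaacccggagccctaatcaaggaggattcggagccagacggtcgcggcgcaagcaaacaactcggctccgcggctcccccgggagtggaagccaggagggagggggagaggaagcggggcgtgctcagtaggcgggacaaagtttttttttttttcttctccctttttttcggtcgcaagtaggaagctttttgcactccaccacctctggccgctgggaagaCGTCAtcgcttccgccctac

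Of the 10 genes 8 had such windows, 12 windows in all. The AP-1 motif TGANTCA was found in 1 of the 12, the inner SPRED2 window, at positions −6 and 35 from the start, and in 7.71% of all 35116 promoter windows. The CRE TGACGTCA was found only in the DUSP1 window, at position −125, and in 1.85% of all windows. The DUSP10 window, with the strongest Jun signal at 0 h, held 4 matches of CCAAT and neither of these motifs, and CCAAT occurs in 34.6% of all windows. The TGACG marked in the outer SPRED2 window occurs in 24.6% of all windows and also in windows of DUSP1, DUSP10, SPRY2 and SPRY4. CACGTG occurs in 7.26% of all windows and TATAAA in 11.5%. A match in letters is not a bound site, and a missing match says only that these letters are not in this window.

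At 4 other genes the regions nearest the start, or for DUSP5 over the gene span, also had less Jun at 72 h. Over the DUSP5 span (chr10:110501012-110501707) Jun was 20.0 and 24.7 CPM at 0 h, 11.1 and 10.0 CPM at 6 h and 4.37 and 3.95 CPM at 72 h, a change of −2.42 ± 0.211. SPRY4 (chr5:142324845-142325306), within 1 kb of its start, changed by −1.25 ± 0.248 at 72 h, from 9.48 and 11.9 CPM to 4.95 and 4.03 CPM. SPRY2 (chr13:80341242-80341633) changed by −1.14 ± 0.307 and SPRED1 (chr15:38253455-38254931) by −0.71 ± 0.190. With total-count scaling the SPRY4 fall remained called, while SPRY2 (−0.58, edgeR adjusted p = 0.11) and SPRED1 (−0.15, edgeR adjusted p = 0.537) did not. DUSP2 and DUSP6 had no Jun region within 1 kb of a RefSeq start. DUSP4, taken over its span like DUSP5, went the other way: its 1 tested Jun region there was higher at 72 h (1.41).

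**Figure D3:**
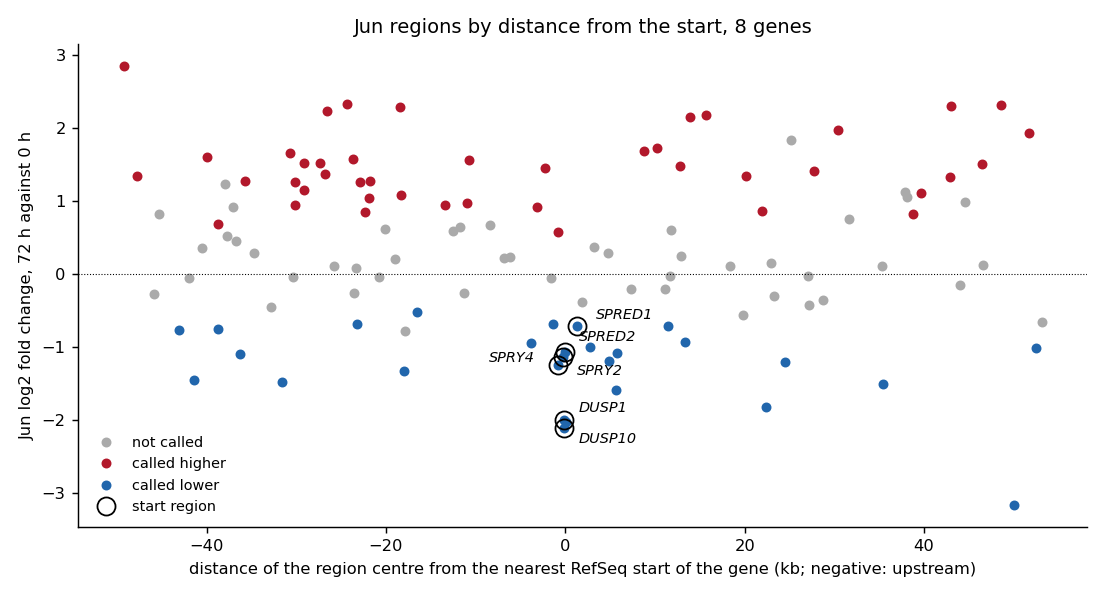
Jun log2 fold change at 72 h against 0 h for 120 tested regions within 60 kb of a start of 8 genes, by signed distance from the nearest RefSeq start in kb; 14 regions farther away are left out. Colour gives the call, and the ringed start regions, labelled for 6 genes, all lie below 0 on the vertical axis, while most regions called higher lie farther from the starts.

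No H3K27ac region that overlapped a member's start was called lower at 72 h, unlike Jun. Of regions beside a start, that of SPRED1 was called lower (log2 fold change −0.39, not called with total-count scaling) and those of DUSP2 and SPRY4 higher. No start of DUSP4 or DUSP5 was available, so their starts were not assessed. The region over the DUSP5 span (−1.11) was called lower. On that gene's side of lower coordinates 15 of 15 were higher, including the region next to the span. Over the DUSP4 span 3 of 3 were higher. Of 5 tested H3K27ac regions that overlapped a member's start, 2 were higher and 0 lower at 72 h, with a median of 0.05, where 72.1% of all H3K27ac regions at RefSeq starts were lower and 13.6% higher. Of the 155 member regions that overlapped no start 114 were higher and 15 lower, where 46.5% and 34.6% of such regions over the genome were. The DUSP1 start region (chr5:172770584-172773118) had 49.1 and 53.3 CPM at 0 h, 46.3 and 54.9 CPM at 6 h and 52.1 and 53.7 CPM at 72 h. All 3 times overlapped, and the log2 change at 72 h was 0.05 ± 0.107 (edgeR adjusted p = 0.70). With total-count scaling it was 0.28 and called. The DUSP10 start region (chr1:221740951-221742965) had 40.1 and 42.7 CPM at 0 h, 48.0 and 57.6 CPM at 6 h and 51.6 and 51.6 CPM at 72 h, a rise of 0.32 ± 0.108 at 72 h. The region at the inner SPRED2 start (chr2:65364227-65367848) rose by 0.94 ± 0.111, from 64.1 and 60.8 CPM to 113 and 125 CPM, and was already at 110 and 129 CPM at 6 h.

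Across the 109 H3K27ac member regions that overlapped a Jun region, the log2 fold changes at 72 h had Pearson's r = 0.83 and Spearman's rho = 0.83, where 67846 such pairs over the genome gave 0.85 and 0.86. This is a correlation across regions, which are not independent replicates and share their 0 h libraries. Both were higher in 41 pairs (37.6%, against 30.5% of all pairs) and both lower in 7 (6.42% against 23.9%). H3K27ac was higher with Jun lower in 13 pairs, or 11.9% against 3.20% of all pairs. The opposite occurred in 0 member pairs and was rare over the genome, in 88 of the 67846 pairs. At 6 h both were higher in 28 pairs (25.7% against 14.3%) and both lower in 9 (8.26% against 11.6%). H3K27ac was then higher with Jun lower in 4 (3.67% against 1.34%). The opposite again occurred in 0 member pairs, and in 209 of the 67846 pairs.

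DUSP1 encodes a nuclear phosphatase of p38, JNK and ERK and is an immediate early gene. Its summed acetylation was 225 and 234 CPM at 0 h and 254 and 256 CPM at 72 h, while single regions moved in both directions. The largest change was far upstream, at chr5:172819606-172820807, at −49011 bp from the start. H3K27ac there had 0.681 and 0.79 CPM at 0 h, 15.8 and 15.2 CPM at 6 h and 23.7 and 26.4 CPM at 72 h, a rise of 4.38 ± 0.216 at 6 h and 5.07 ± 0.202 at 72 h on the log2 scale. Jun at this place (chr5:172819974-172820792) rose from 3.35 and 2.87 CPM to 23.6 and 27.6 CPM at 6 h and stood at 23.1 and 21.9 CPM at 72 h, a change of 2.85 ± 0.239. Rad21 there (chr5:172820199-172820591) rose from 1.42 and 0.422 CPM to 8.34 and 6.41 CPM, or by 2.90 ± 0.512. H3K27ac, Jun and Rad21 were each higher in both 72 h libraries than in both 0 h libraries. Between this region and the gene, H3K27ac fell at chr5:172788341-172789818, from 65.5 and 65.3 CPM at 0 h to 38.9 and 40.8 CPM at 72 h (−0.72 ± 0.110). It fell also at chr5:172801975-172803650, from 58.0 and 60.5 CPM to 38.7 and 38.9 CPM (−0.61 ± 0.102), and Jun fell at the same places by −1.33 ± 0.197 and −1.49 ± 0.186. These 2 were picked after their values were seen, as the only H3K27ac regions of DUSP1 called lower at 72 h. The strongest Jun region on average, chr5:172777392-172778632, rose at 6 h by 0.76 ± 0.187, from 31.6 and 29.2 CPM to 49.5 and 53.6 CPM. It was at 36 and 35 CPM at 72 h (0.22 ± 0.181, edgeR adjusted p = 0.31, or 0.78 and called with total-count scaling).

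DUSP2 encodes a nuclear phosphatase first known from activated lymphocytes. Its strongest H3K27ac region (chr2:96146094-96148013) lay upstream of the start and was measured at 2.95 and 4.27 CPM at 0 h, 17.8 and 17.9 CPM at 6 h and 34.8 and 34.5 CPM at 72 h. It rose by 2.29 ± 0.162 and 3.25 ± 0.152. The neighbouring region chr2:96148065-96148933 rose by 3.11 ± 0.271 and 4.08 ± 0.247. Jun within the latter (chr2:96148375-96148915) rose from 5.25 and 6.02 CPM to 15.2 and 14.6 CPM at 6 h and was 11.2 and 10.1 CPM at 72 h, a change of 1.4 ± 0.247 and 0.92 ± 0.228. On the other side of the gene, inside the ASTL span, the Jun region chr2:96129352-96130074 rose by 1.79 ± 0.355 and 2.17 ± 0.306.

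DUSP4 encodes a nuclear phosphatase of ERK and JNK, and its locus began almost without acetylation. The region chr8:29373083-29374667 had 2 and 0 H3K27ac counts at 0 h, 41 and 37 counts at 6 h and 532 and 584 counts at 72 h. The ratio of CPM was 41.2 at 6 h (exact 95% interval 11 to 346) and 371 at 72 h (102 to 3064), where the intervals cover counting error only. Jun at this place (chr8:29373174-29374304) was measured at 3.35 and 4.16 CPM at 0 h, 6.58 and 10.2 CPM at 6 h and 18.7 and 16.3 CPM at 72 h, a rise of 1.18 ± 0.304 and 2.22 ± 0.256. Within the span, H3K27ac at chr8:29340931-29342031 rose by 1.89 ± 0.372 at 6 h and 4.23 ± 0.291 at 72 h. Jun at the same place (chr8:29341096-29341821) changed by 0.02 ± 0.345 at 6 h, not called, and rose by 1.41 ± 0.265 at 72 h. Jun fell at chr8:29289255-29290151, from 28.3 and 29.96 CPM to 10.6 and 10.9 CPM at 72 h (−1.44 ± 0.189).

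DUSP5 encodes a nuclear phosphatase that acts on ERK alone and is itself an ERK target. Its window had 31 H3K27ac regions, of which 15 lay on each side of the gene and 1 over it, and the sides differed in timing. On the side of higher coordinates 15 of 15 were higher at 6 h, with a median log2 fold change of 3.99, and the further change from 6 h to 72 h had a median of 0.86. On the side of lower coordinates 10 of 15 were higher at 6 h, with a median of 1.70, and the later change had a median of 2.64, with 14 of 15 higher. All 30 were higher at 72 h than at 0 h. The sides were compared after their values were seen, and the difference between them was not tested.

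On the side of higher coordinates, the region chr10:110511610-110513883 next to the gene's end was at 4.26 and 4.69 CPM at 0 h, 33.3 and 34.0 CPM at 6 h and 30.3 and 29.7 CPM at 72 h. It rose by 2.91 ± 0.138 by 6 h, and the libraries of 72 h lay just below those of 6 h. Farther out, chr10:110527719-110527983 had 2 and 0 counts at 0 h, 51 and 59 counts at 6 h and 177 and 236 counts at 72 h, a ratio of 137 at 72 h (exact 95% interval 37.7 to 1136). On the side of lower coordinates, chr10:110454146-110455441 had 10 and 10 counts at 0 h, 28 and 38 counts at 6 h and 830 and 819 counts at 72 h, a change of 1.79 ± 0.326 and 5.76 ± 0.213. The region chr10:110446632-110448384 overlaps a RefSeq start of another gene. It had 2.33 and 2.27 CPM at 0 h, 7.21 and 6.20 CPM at 6 h and 38.5 and 43.2 CPM at 72 h. These last 2 were picked after their values were seen, and both rose mostly after 6 h, by 3.97 ± 0.174 and 2.62 ± 0.137 from 6 h to 72 h. Over the gene itself the single region (chr10:110500979-110502589) fell, from 30.3 and 33.6 CPM to 14.6 and 15.2 CPM at 6 h and 15.6 and 14.1 CPM at 72 h (−1.11 ± 0.118).

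Jun at DUSP5 also differed between the sides, but it did not follow H3K27ac throughout. On the side of higher coordinates 4 of 6 regions were higher at 6 h, with a median of 2.13, and 4 of the 6 were then lower at 72 h than at 6 h, with a median of −0.78. Of the H3K27ac regions there 11 of 15 were higher and 0 lower from 6 h to 72 h. With total-count scaling only 4 of the 159 Jun regions of all members were lower from 6 h to 72 h. The region chr10:110525697-110526348 had 1.9 and 2.72 CPM at 0 h, 22 and 18.4 CPM at 6 h and 9.89 and 12.6 CPM at 72 h. It rose by 3.12 ± 0.293 at 6 h and 2.28 ± 0.284 at 72 h, and the drop from 6 h to 72 h, −0.84 ± 0.213, was −0.47 and not called with total-count scaling. On the side of lower coordinates 1 of 10 Jun regions was higher at 6 h and 7 of 10 at 72 h. Jun beside the gene's end (chr10:110512521-110513422) was 27.3 and 20.6 CPM at 0 h, 25.6 and 32.5 CPM at 6 h and 8.80 and 10.4 CPM at 72 h. It fell by 72 h (−1.31 ± 0.205) where H3K27ac over it rose (2.74 ± 0.136).

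**Figure D4:**
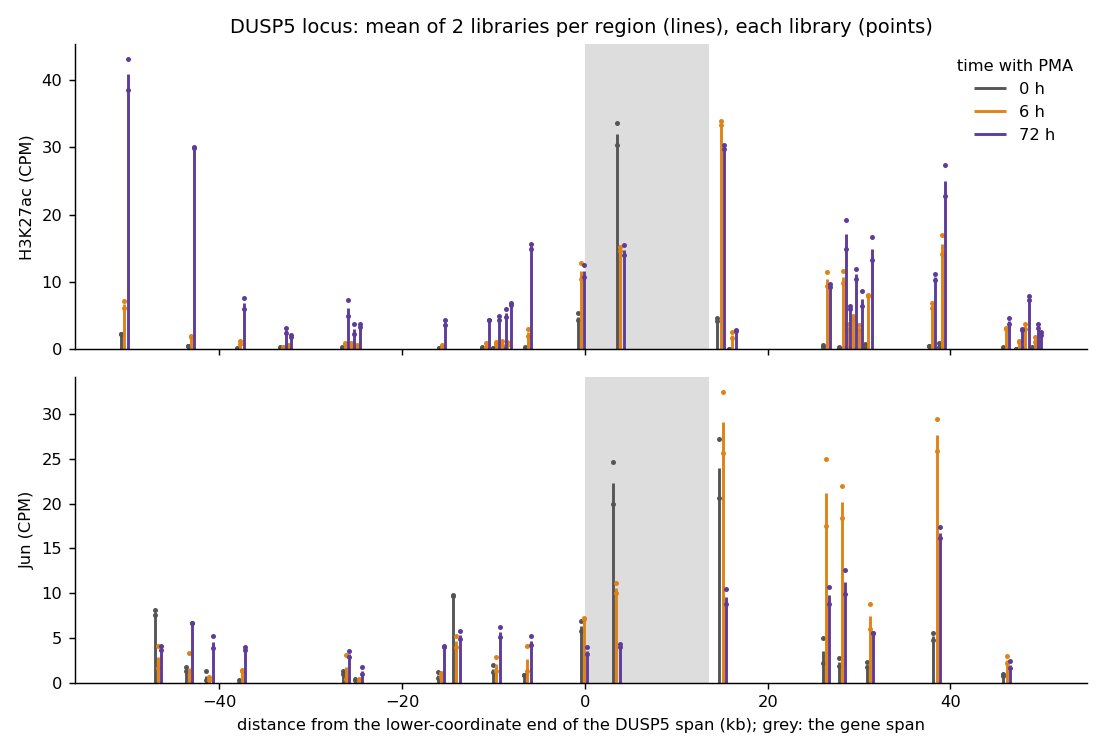
CPM of the H3K27ac (top) and Jun (bottom) regions around DUSP5 at 0, 6 and 72 h, by distance in kb from the lower-coordinate end of the gene span (grey); lines rise from 0 to the mean of 2 libraries and points are the libraries. The H3K27ac region just right of the span is at 33.3 and 34.0 CPM at 6 h and lower at 72 h. The leftmost region, which overlaps a RefSeq start of another gene, is tall only at 72 h, at 38.5 and 43.2 CPM.

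DUSP6 encodes a cytoplasmic phosphatase that acts on ERK. Of its 23 H3K27ac regions 17 were higher at 6 h and 19 at 72 h, with 0 lower at either time. The strongest region (chr12:89389881-89392734), at −38806 bp from the start, rose from 50.4 and 55.0 CPM to 78.4 and 88.0 CPM at 6 h and 109 and 132 CPM at 72 h (0.66 ± 0.115 and 1.19 ± 0.114). Jun within it (chr12:89390512-89391944) rose by 1.05 ± 0.208 at 6 h and 0.68 ± 0.202 at 72 h. Within 2 kb of its edge, at chr12:89393563-89394309, Jun went the other way, from 49.9 and 44.4 CPM at 0 h to 10.7 and 15.3 CPM at 6 h and 15.6 and 18.8 CPM at 72 h (−1.84 ± 0.220 and −1.45 ± 0.193). Nearer the gene, chr12:89362608-89363575 rose by 2.45 ± 0.225 and 2.67 ± 0.216 in H3K27ac, and Jun there (chr12:89362963-89363607) by 1.47 ± 0.330 and 1.56 ± 0.289. The region chr12:89309004-89310227 on the other side rose later, from 1.42 and 3.06 CPM to 6.37 and 7.58 CPM at 6 h and 24.6 and 25.4 CPM at 72 h.

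DUSP10 encodes a phosphatase of JNK and p38. It was the DUSP with the most regions lower, 6 of 19 at 6 h and 4 of 19 at 72 h. Its strongest H3K27ac region, chr1:221707217-221709084 inside the gene, had 91.1 and 87.8 CPM at 0 h, 38.7 and 42.7 CPM at 6 h and 51.6 and 57.5 CPM at 72 h. It fell by 6 h (−1.13 ± 0.107), recovered in part from 6 h to 72 h (0.42 ± 0.107) and was lower at 72 h than at 0 h (−0.71 ± 0.103). The other strong intragenic region, chr1:221713396-221714980, fell from 76.1 and 67.1 CPM to 40.5 and 47.5 CPM at 6 h and 45.6 and 48.0 CPM at 72 h. Upstream, chr1:221775852-221777716 rose from 5.34 and 5.48 CPM to 8.26 and 9.25 CPM at 6 h and 20.4 and 22.4 CPM at 72 h (1.98 ± 0.149). Close to the start, chr1:221740010-221740568 rose by 1.56 ± 0.204 and 1.92 ± 0.194.

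SPRY2 and SPRY4 encode Sprouty proteins, which restrain receptor tyrosine kinase signalling to Ras. SPRY4 was among the most changed loci, with 15 of 17 H3K27ac regions higher at both 6 h and 72 h and 12 of them higher again at 72 h than at 6 h. Downstream of the gene, chr5:142292904-142294325 had 1.48 and 1.58 CPM at 0 h, 24.4 and 29.5 CPM at 6 h and 42.6 and 47.3 CPM at 72 h (4.14 ± 0.179 and 4.87 ± 0.171). Jun there (chr5:142293373-142294258) rose by 2.09 ± 0.289 and 1.97 ± 0.265. Upstream, chr5:142341441-142343711 rose from 5.28 and 5.01 CPM to 29.4 and 34.4 CPM and then 80.8 and 90.4 CPM (2.64 ± 0.141 and 4.06 ± 0.136), which put it level with the region beside the start. Jun there (chr5:142342085-142343384) rose from 6.27 and 5.16 CPM to 12.5 and 20.8 CPM and 27.4 and 28.2 CPM (2.28 ± 0.239 at 72 h), and this locus is taken up again with cohesin. The region beside the SPRY4 start (chr5:142324766-142327751) rose less, from 48.6 and 54.6 CPM to 64.3 and 69.5 CPM and 81.0 and 84.8 CPM (0.68 ± 0.105), while Jun at that start fell. This acetylated region overlaps a RefSeq start of another gene.

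SPRY2 had 7 H3K27ac regions, of which 1 was higher at 6 h and 5 at 72 h. Its start region (chr13:80339799-80341832) was measured at 24.1 and 26.9 CPM at 0 h, 18.3 and 20.5 CPM at 6 h and 20.0 and 24.5 CPM at 72 h. It was lower at 6 h (−0.39 ± 0.128), a call lost with total-count scaling (−0.06), and not called at 72 h. Downstream, chr13:80325988-80327185 rose late, from 0.625 and 0.263 CPM to 1.12 and 2.02 CPM at 6 h and 10.7 and 12.1 CPM at 72 h (1.88 ± 0.424 and 4.69 ± 0.313). No Jun region of SPRY2 was higher at 6 h, and 2 of 4 were higher at 72 h.

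SPRED1 and SPRED2 encode membrane-bound proteins that recruit neurofibromin, an inactivator of Ras. Their H3K27ac moved mostly in opposite directions, but their Jun regions did not. At 72 h Jun was higher in 5 and lower in 1 of 11 tested regions at SPRED1. At SPRED2 it was higher in 10 and lower in 6 of 30, where 28% of all Jun regions were higher and 25.7% lower. At SPRED1 the broad region beside the start (chr15:38253492-38257881) holds nearly all the acetylation of the locus, with 155 and 154 CPM at 0 h, 116 and 134 CPM at 6 h and 112 and 123 CPM at 72 h. It was lower at 72 h by −0.39 ± 0.108 (edgeR adjusted p = 0.002), and with total-count scaling this was −0.16 and not called (edgeR adjusted p = 0.0708). The other 4 regions inside the gene were weak and fell by more, −1.38 to −2.68 at 72 h, such as chr15:38323611-38324012, from 2.44 and 2.27 CPM to 0.398 and 0.328 CPM. The 1 region that rose, chr15:38397872-38398578, lay beyond the end of the gene, at 0.227 and 0.316 CPM at 0 h and 3.44 and 3.20 CPM at 72 h (3.58 on the log2 scale). Jun there (chr15:38398004-38398613) rose by 1.31 ± 0.269 at 72 h and not at 6 h (−0.33 ± 0.367).

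At SPRED2, 21 of 33 H3K27ac regions were higher at 6 h and 23 at 72 h. Upstream of the outer start, chr2:65455655-65456850 overlaps a RefSeq start of another gene. It rose from 0.738 and 0.896 CPM to 8.05 and 7.38 CPM at 6 h and 13.0 and 13.1 CPM at 72 h (3.22 ± 0.248 and 3.98 ± 0.230). Its neighbour chr2:65458502-65459407 rose later, by 1.75 ± 0.355 at 6 h and 4.08 ± 0.279 at 72 h, and Jun there (chr2:65458910-65459411) rose by 2.24 ± 0.311 at 72 h, with 0.74 ± 0.407 at 6 h not called. Inside the gene, Jun rose at chr2:65319875-65320739 from 3.65 and 4.87 CPM to 14.1 and 11.3 CPM at 6 h and 12.6 and 11.6 CPM at 72 h. The strong region next to the outer start (chr2:65435515-65438044) fell, from 86.8 and 90.8 CPM to 57.0 and 68.9 CPM at 6 h and 64.4 and 70.0 CPM at 72 h (−0.40 ± 0.108). With TMM scaling, acetylation thus rose over the inner SPRED2 start and fell at −4180 bp from the outer one. The region over the outer start itself was not called lower. Total-count scaling moved the median of all H3K27ac regions at 72 h from 0.18 to 0.42, so a fall of this size may depend on the scaling.

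Cohesin was gained at these loci more often than lost. Of 101 tested Rad21 regions 27 were higher and 4 lower at 72 h, or 30.7% called against 23.3% of all 83750, with 26.7% higher against 15.4% of all and 3.96% lower against 7.91%. The greater share called was not kept under other settings. With total-count scaling 17 were higher and 5 lower, or 21.8% called against 24.1% of all. Of those calls 77.3% were higher, against 48.8% of all calls. With DESeq2 9.47% were called against 9.20% of all. The count of calls rests on few libraries, and without 72 h replicate 1 it was 9. At SPRY4 the upstream region chr5:142342242-142343204 rose from 3.14 and 2.74 CPM to 19.1 and 16.8 CPM (2.59 ± 0.320). At DUSP5 chr10:110526005-110526390 rose from 0.943 and 0.844 CPM to 8.19 and 6.98 CPM (3.05 ± 0.487). At DUSP6 chr12:89375469-89376294 rose from 7.70 and 3.80 CPM to 26.8 and 24.1 CPM (2.1 ± 0.300), where H3K27ac over it rose by 2.06 ± 0.121. In none of these 3 did the libraries of the 2 times overlap. The 4 that fell were 3 at DUSP10 (−1.62, −0.84 and −1.22) and the SPRY4 start (−0.81 ± 0.270). No member region was called lower without 0 h replicate 1, without 72 h replicate 1 or with DESeq2. The DUSP10 start, at 37.6 and 38.2 CPM the strongest Rad21 region of its locus, had 31.0 and 32.4 CPM at 72 h and was not called (−0.26 ± 0.229).

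Of the 27 Rad21 regions that rose, 26 overlapped a Jun region (96.3%, against 89.0% of all Rad21 regions that rose) and 12 a CTCF region (44.4% against 47.4%). All 27 overlapped an H3K27ac region (73.5% of all that rose did), and this was higher in 26, or 96.3% against 65.5% of all. The overlapped Jun region was higher in 16 (59.3% against 53.6%), lower in 1 (3.70% against 14.9%) and not called in 9 (33.3% against 20.5%). Among the 70 Rad21 regions not called, 65.7% overlapped a Jun region (54.8% of all not called) and 40% a CTCF region (47.6%).

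**Figure D5:**
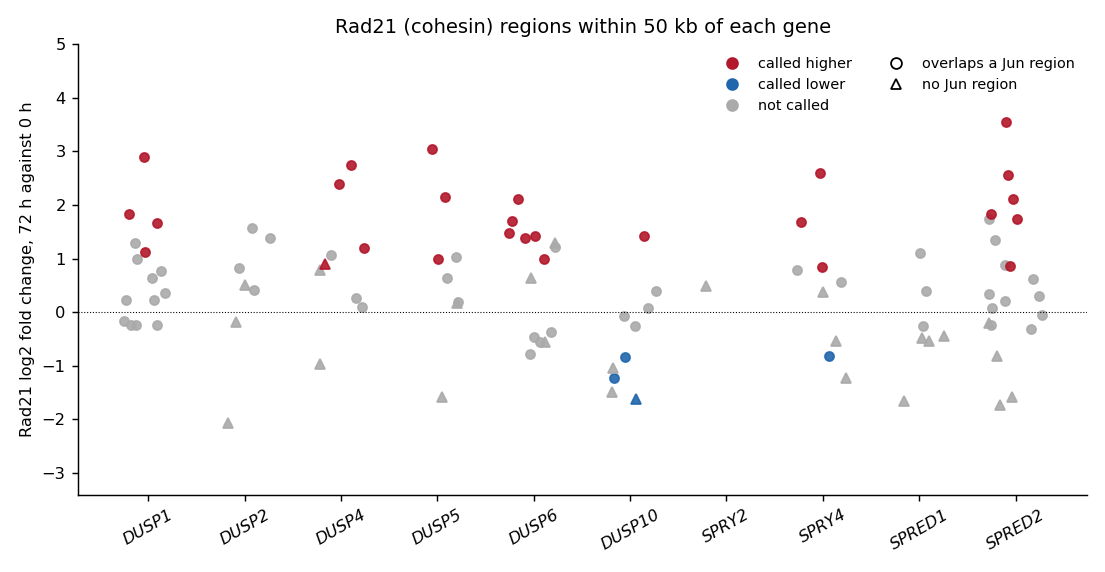
Rad21 log2 fold change at 72 h against 0 h for the 101 tested regions of the 10 genes, by gene, with colour for the call, circles for regions that overlap a Jun region and triangles for those that do not. Of the 27 regions that rose, 26 overlap a Jun region, and 3 of the 4 that fell belong to DUSP10.

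Few CTCF regions were called. Of 51 tested regions 4 were higher and 0 lower at 72 h (7.84% called against 6.79% of all 58156), 1 was higher at 6 h (1.96% against 2.65%) and 1 was lower from 6 h to 72 h (1.96% against 2.18%). Of all tested CTCF regions 4.07% were higher and 2.72% lower at 72 h, 2.33% and 0.325% at 6 h, and 0.449% and 1.73% from 6 h to 72 h. The 4 were named because they are so few. SPRY4 had 2 of them: chr5:142342272-142343074, inside the upstream region with gains of acetylation, Jun and Rad21, went from 2.80 and 1.44 CPM to 13.4 and 10.3 CPM (2.39 ± 0.481), and chr5:142356806-142357444 from 2.29 and 2.89 CPM to 15.4 and 9.27 CPM (2.24 ± 0.476). At DUSP6 chr12:89391287-89391589 went from 1.53 and 0.722 CPM to 8.29 and 5.90 CPM (2.54 ± 0.610). In SPRED2 chr2:65420907-65421224 had 0 counts in both 0 h libraries, 8 and 6 counts at 6 h and 19 and 32 counts at 72 h, at least 9.93-fold higher against a floor of 3 counts over the group. Strong CTCF regions such as chr8:29314482-29315413 near DUSP4, with 32.9 and 42.2 CPM at 0 h and 38.2 and 40.9 CPM at 72 h, overlapped between the times. None of the 4 remained called without either 0 h library or without 72 h replicate 1. Total-count scaling gave 14 higher of 51 at 72 h, or 27.5% against 12.3% of all called. Without 6 h replicate 1 the median log2 fold change of the member regions at 72 h was 0.47, and without 6 h replicate 2 it was 0.48. For all regions these medians were 0.02 and 0.03.

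In the authors' peak lists, called for each library, 39 of the 164 H3K27ac member regions held a peak in both libraries at 0 h, 43 at 6 h and 88 at 72 h. These are 23.8%, 26.2% and 53.7%, against 29.2%, 24.1% and 48.0% of all regions. From no peak at 0 h to a peak in both libraries at 72 h went 48 (29.3% against 22.8% of all), and 3 lost a peak in the same sense (1.83% against 4.91%). For Jun the numbers at the 3 times were 40, 37 and 103 of 161, or 24.8%, 23.0% and 64.0% against 18.0%, 13.2% and 56.2% of all. By the same definitions 56 were gained (34.8% against 34.7%) and 1 was lost (0.621% against 1.21%). The 72 h libraries of both antibodies were the deepest, which moves such counts, and the part of depth in them was not tested.

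Among other genes of the pathway, those of the kinase cascades were mostly lower in H3K27ac and other ERK targets mostly higher. At the start region of each gene, or its strongest region over the span where no region lay at a start, 0 of 18 tested genes of the Ras to ERK cascade had higher H3K27ac at 72 h and 17 had lower, among them the kinase MAPK3 (−1.52 ± 0.146). With total-count scaling 1 was higher and 14 lower. Among 8 tested genes of the JNK and p38 cascades 0 were higher and 7 lower. Of 8 other genes known as ERK targets or feedback 7 were higher and 1 lower, under both scalings, with SPSB1 (6.41 ± 0.390), EPHA2 (3.34 ± 0.396) and ERRFI1 (2.24 ± 0.456), an inhibitor of EGF receptors, showing the greatest rises and IER3 the fall (−0.60 ± 0.102). Of 3 other MAP kinase phosphatases 0 were higher and 1 was lower, and of 3 other Sprouty and SPRED genes SPRED3 was higher (3.96 ± 0.386), SPRY3 lower (−0.77 ± 0.112) and SPRY1 not called. The regions differ in kind: 13 of the 18 of the Ras to ERK cascade overlapped a start, but only 1 of the 8 of the ERK targets did, and 5 of those 8, SPSB1 among them, were regions elsewhere in the span. Over all H3K27ac regions at RefSeq starts 13.6% were higher and 72.1% lower, and away from starts 46.5% and 34.6%.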

How the data were processed

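Per the submitters' processing notes, Trim Galore 0.4.3, BWA 0.7.17, SAMtools 1.9, deepTools 3.0.1, MACS2 and bedtools 2.26 were used, with hg19 and hg38 both listed; how regions were built is not given in the sources used here. Contig names and positions match GRCh38. Fixation was with 1% formaldehyde (10 min) in aliquots of 500000 cells, with a KAPA Hyperprep kit, per the labels' protocols. The 4 deposited region tables give, for each library, the authors' raw read count in a region, unnormalized. They also hold the authors' log2 fold changes and adjusted p-values, not used here. The deposited peak lists give, per library, fold enrichment (a ratio) and −log10 p-values and −log10 q-values. Region starts were shifted to count from 1.

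The members and gene lists were chosen with earlier results of these data known. The counts of 1 antibody at a time, over all its regions, went into edgeR 4.0.16 under R 4.3.3: filterByExpr by group, TMM scaling, glmQLFit and glmQLFTest over all times of that antibody, with Benjamini-Hochberg adjustment; the standard error is the log2 fold change divided by the square root of F. Of the member regions, 164 (H3K27ac), 159 (Jun), 51 (CTCF) and 101 (Rad21) passed the filter. The procedure was tested on simulated counts. CPM use TMM library sizes. Per gene and antibody, the regions named were the start region, the strongest region, and, for each contrast against 0 h, the called region of largest change among those at or above the median CPM whose libraries did not overlap. Regions added after their values were seen are described as such or stand beside a named region. The labels do not say that replicates came from separate cultures, so p-values measure only the spread between these libraries. Titles number the replicates 1 and 2, but deviations from the group means of libraries with the same number correlated at −0.02 to 0.124, so the numbers were not taken to pair libraries. Alternatives were other scalings and filters, DESeq2 1.42.0, a replicate block, narrower windows, each library left out, and, chosen after seeing the data, scaling without mitochondrial regions.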

Additional observations from a re-analysis of the deposited data

How the results depend on the processing

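For H3K27ac in its 3 comparisons, Jun at 6 h and 72 h against 0 h and Rad21, more member regions were called higher than lower under each alternative run, except for Jun in the gene spans alone (7 higher and 10 lower at 6 h, 9 and 15 at 72 h). For H3K27ac at 6 h total-count scaling gave 5 lower calls against 16. Under total-count scaling 85.3% of the members' Jun calls were higher at 72 h against 0 h, and 90.7% at 72 h against 6 h. Over all Jun regions these shares were 74.4% and 78.9%. Without mitochondrial regions, an alternative chosen after seeing the data, they were 74.3% and 65.8% for the members and 62.8% and 65.5% over all. For Rad21 the share without mitochondrial regions was 75%, against 48.6% over all. With DESeq2, Jun at 72 h against 6 h had 18 calls, of which 33.3% were higher, against 37.1% of all calls. Rad21 then had 9 calls, 100% higher, against 83.9% of all calls. CTCF had 0 with DESeq2 at 6 h against 0 h and 0 at 72 h against 6 h. With a mean count of at least 50, 15 CTCF member regions were tested, with 0, 0 and 0 calls in the 3 comparisons. Of all such CTCF regions 2.90%, 2.59% and 1.29% were called. Rad21 then had 10 calls of 27 tested, or 37.0% against 28.7% of all. With that filter Jun at 72 h against 0 h had 37 higher and 31 lower of 88, near the share of all calls that were higher (54.4% against 53.4%). With total-count scaling CTCF had 14 calls at 72 h against 0 h and 8 at 72 h against 6 h. All of these were higher (100%, against 91.4% and 81.5% of all calls). At 72 h against 6 h CTCF had 0 calls with DESeq2 size factors and 0 without mitochondrial regions. With the replicate block CTCF had 8 calls at 72 h against 0 h; the block moved no other count of member calls by over 1.5 times. In the gene spans alone, 41.9% of H3K27ac regions were called at 72 h against 6 h, 6.25% of CTCF regions at 6 h against 0 h and 0% at 72 h against 6 h, and 0% of the latter within 25 kb.

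Leaving out each library in turn gave 102 to 113, 127 to 137 and 80 to 106 H3K27ac calls (6 h and 72 h against 0 h, 72 h against 6 h), 46 to 65, 61 to 110 and 9 to 39 Jun calls, 0 to 1, 0 to 14 and 0 to 7 CTCF calls and 9 to 28 Rad21 calls. At 6 h, the DUSP1 start region had 0.32 (total counts) and 0.33 (without mitochondrial regions) in H3K27ac, and the SPRED1 region beside the start 0.037 and 0.046, against −0.02 and −0.30. Over the 87 named regions, 2651 alternative values kept direction and call, 88 lost the call, 35 gained one and 4 changed sign. The cause of these differences was not tested. There were 2 libraries a group and a median of 13 to 94 counts per region. Small changes in weak Jun, CTCF and Rad21 regions may have been missed, and the smallest detectable change was not tested.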
